A study of Mus musculus with 6 samples.

Results

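The insulin-like growth factor genes comprised 10 genes, namely the ligands Igf1 and Igf2, the imprinted non-coding RNA H19, the receptors Igf1r, Igf2r and Insr, the binding proteins Igfbp3, Igfbp4 and Igfbp5, and the adaptor Irs1. Lsd1 peaks were assigned to a gene when the peak centre lay within its curated RefSeq span on mm10 or within 10 kb of either end. Of 95852 Lsd1 peaks in the 3 peak lists, 77 lay at these 10 genes, 32 of 43426 in the myogenic list, 16 of 18893 in the adipogenic list and 29 of 33533 in the LSD1(OE) list. Overlapping peaks of the 3 lists merged into 43 regions, out of 56729 regions in all.

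Chromatin bound by Lsd1 was profiled by ChIP-seq in C2C12, a mouse myoblast line that forms muscle cells in low serum and adipocyte-like cells in a hormone cocktail. Wild-type cells were differentiated for 1 day in myogenic medium (2% horse serum) or in adipogenic medium. LSD1(OE) cells were differentiated for 1 day in the same adipogenic medium. That medium held fetal bovine serum, 0.5 mM isobutylmethylxanthine, 5 µM dexamethasone, 850 nM insulin, 1 µM rosiglitazone, indomethacin and T3, so the serum also differed between the media. The LSD1(OE) cells were a stable lentiviral line selected with G418, in which doxycycline, given before and during differentiation, induced Flag-tagged LSD1. No doxycycline or empty vector is listed for the wild-type cells, so LSD1 level, line and doxycycline cannot be told apart. Each condition had 1 ChIP library and 1 input library, so the values have no replicate error, no test between conditions was possible, and the intervals given are 95% intervals that cover counting error only. Adipogenic medium contains insulin at a concentration that also engages the type 1 IGF receptor, and the libraries cannot separate it from the other components. The peak lists hold no expression values, so the label of the cell line could not be checked against marker genes.

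Igf1 and Igf2 are secreted growth factors that act through the tyrosine kinase receptor Igf1r, and both insulin and Igf2 also act through Insr. Igf2r, the cation-independent mannose-6-phosphate receptor, takes up Igf2 and sends it to lysosomes, and the Igf binding proteins hold the ligands outside the cell and set how much reaches the receptors. Irs1 couples Igf1r and Insr to PI3-kinase and Akt. In muscle this pathway drives myoblast differentiation and fibre growth, and in fat precursors it is needed for adipocyte formation. Lsd1 (Kdm1a) removes methyl groups from mono- and dimethylated lysine 4 of histone H3 and is part of complexes with Rcor1 and Hdac1.

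Sequences at a selection of the stronger shared or condition-restricted peaks are given here. Not every such peak is included, and those at H19 and Igfbp5 are left out. Each is a window of 201 bases centred on the peak summit in the library with the highest score there, read from the mm10 assembly (GRCm38.p6) in the direction of the gene, except for Irs1, where the summits near the transcription start site (TSS) lay in the 5′ untranslated region and the 250 bases upstream of the TSS are given instead, from the RefSeq promoter table, which held 8 of the 10 genes. Capitals mark matches, on either strand, to the E-box CAGCTG bound by myogenic factors, the AP-1 motif TGACTCA, the TEAD motif GGAATG, the C/EBP motif TTGCGCAA and the CTCF core GGNGGCAG.
Igf1, myogenic summit, chr10:87860193-87860393, plus strand: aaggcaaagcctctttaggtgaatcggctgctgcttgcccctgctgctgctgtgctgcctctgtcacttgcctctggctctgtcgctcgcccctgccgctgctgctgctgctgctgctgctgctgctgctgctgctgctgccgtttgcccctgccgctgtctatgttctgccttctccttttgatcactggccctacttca
Igf1r, myogenic summit, chr7:67951775-67951975, plus strand: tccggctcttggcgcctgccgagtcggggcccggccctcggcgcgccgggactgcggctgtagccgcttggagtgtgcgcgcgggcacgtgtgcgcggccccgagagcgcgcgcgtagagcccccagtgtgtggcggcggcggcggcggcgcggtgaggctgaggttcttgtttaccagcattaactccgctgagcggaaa
Igf2r intron 1, myogenic summit, chr17:12759744-12759944, minus strand: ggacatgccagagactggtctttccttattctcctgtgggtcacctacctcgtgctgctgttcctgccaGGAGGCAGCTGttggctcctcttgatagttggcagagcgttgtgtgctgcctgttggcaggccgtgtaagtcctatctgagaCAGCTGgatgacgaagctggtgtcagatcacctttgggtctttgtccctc
Igf2r intron 2 beside the Airn start, myogenic summit, chr17:12740404-12740604, minus strand: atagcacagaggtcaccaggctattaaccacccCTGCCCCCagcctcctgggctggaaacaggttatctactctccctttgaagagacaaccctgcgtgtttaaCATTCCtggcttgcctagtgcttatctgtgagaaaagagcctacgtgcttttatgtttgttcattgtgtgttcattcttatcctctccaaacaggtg
Insr intron 2, myogenic summit, chr8:3247208-3247408, minus strand: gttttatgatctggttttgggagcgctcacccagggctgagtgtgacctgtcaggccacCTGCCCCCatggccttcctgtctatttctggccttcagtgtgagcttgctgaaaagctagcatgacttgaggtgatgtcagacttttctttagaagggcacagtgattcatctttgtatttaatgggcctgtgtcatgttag
Igfbp3, adipogenic summit, chr11:7214047-7214247, minus strand: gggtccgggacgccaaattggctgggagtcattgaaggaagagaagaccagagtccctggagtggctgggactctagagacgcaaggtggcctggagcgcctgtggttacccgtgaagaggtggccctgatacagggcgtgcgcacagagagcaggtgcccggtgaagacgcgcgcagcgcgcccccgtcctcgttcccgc
Igfbp4 intron 1, LSD1(OE) summit, chr11:99047167-99047367, plus strand: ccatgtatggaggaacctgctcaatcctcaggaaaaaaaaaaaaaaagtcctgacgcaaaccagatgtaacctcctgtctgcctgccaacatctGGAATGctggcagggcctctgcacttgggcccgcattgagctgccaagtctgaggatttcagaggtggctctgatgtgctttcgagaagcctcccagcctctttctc
Irs1 promoter, chr1:82291440-82291689, minus strand: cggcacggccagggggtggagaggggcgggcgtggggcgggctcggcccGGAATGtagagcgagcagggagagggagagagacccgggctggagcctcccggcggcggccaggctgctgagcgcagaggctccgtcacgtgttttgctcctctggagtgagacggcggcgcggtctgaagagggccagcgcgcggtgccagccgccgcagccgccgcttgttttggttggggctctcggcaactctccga
Irs1 coding exon 1, LSD1(OE) summit, chr1:82286984-82287184, minus strand: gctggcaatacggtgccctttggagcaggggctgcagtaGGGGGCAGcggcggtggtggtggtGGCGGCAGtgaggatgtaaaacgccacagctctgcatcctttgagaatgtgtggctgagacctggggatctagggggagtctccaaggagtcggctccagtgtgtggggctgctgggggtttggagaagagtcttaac

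In myogenic medium 9 of the 10 genes had a peak in their window, against 62.5% of all 26180 genes, and 6 had one at a promoter, a peak centre within 2000 bp of a TSS, against 46.8%. In adipogenic medium 7 genes had a peak (all genes, 41.2%), 4 of them at a promoter (27%). For LSD1(OE) cells these numbers were 8 (53.9%) and 5 (37.3%). The shares of the 10 genes were thus above those of all genes in each library. The share differed with window length: it was 49.6, 31.5 and 42.6% for genes with windows under 30 kb (myogenic, adipogenic, LSD1(OE)), 69.6, 44.7 and 58.6% for 30 to 60 kb, 76.3, 52.9 and 67.4% for 60 to 120 kb and 75.4, 55.3 and 68.5% for longer ones. Per length, the windows held 3.60, 1.80 and 3.26 peaks per 100 kb, against 2.99, 1.35 and 2.27 in the windows of all genes. Most peaks were of ordinary strength. The deposited score is 10 times the negative log10 of the peak caller's p-value, and the median score of the member peaks lay at percentiles 49.6, 46.6 and 49.6 of the 3 lists. The adipogenic list was the shortest although its ChIP library was the deepest, with 63915769 filtered tags against 46155625 (myogenic) and 55193310 (LSD1(OE)), and the counts below carry that difference in list length.

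**Figure D1:**
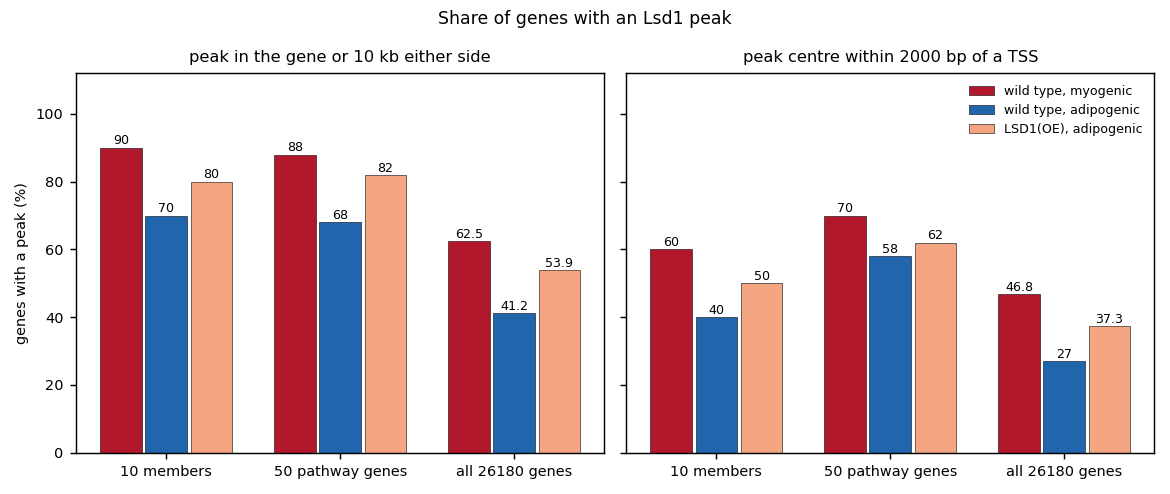
Percentage of genes with an Lsd1 peak (vertical axis) for the 10 insulin-like growth factor genes, 50 further pathway genes and all 26180 genes, in the gene window (left panel) and at a promoter (right panel); bars are single libraries and have no error. In all 3 gene sets and both panels the myogenic bar is the highest and the adipogenic bar the lowest.

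By gene, Igf1r, Igf2r, Insr, Igfbp3, Igfbp4, Igfbp5 and Irs1 had a peak in all 3 lists, Igf1 in the myogenic and LSD1(OE) lists, H19 in the myogenic list alone, and Igf2 in none. Of all genes, 37.9% had a peak in all 3 lists, 12.5% in the myogenic and LSD1(OE) lists alone, 9.66% in the myogenic list alone and 33.6% in none. At promoters, Igf1r and Igfbp5 had a peak in all 3 lists, Insr and Igfbp3 in the 2 wild-type lists, Igf1 and Irs1 in the myogenic and LSD1(OE) lists, and Igfbp4 in LSD1(OE) cells alone. Igf2, H19 and Igf2r had no promoter peak in any list. Over all genes these patterns made up 23.5, 2.53, 10.8 and 2.59%, and 49.7% had no promoter peak. Irs1 belongs to the myogenic and LSD1(OE) pattern by the position of the peak centre only, since its adipogenic peak covered the TSS, as described below.

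**Figure D2:**
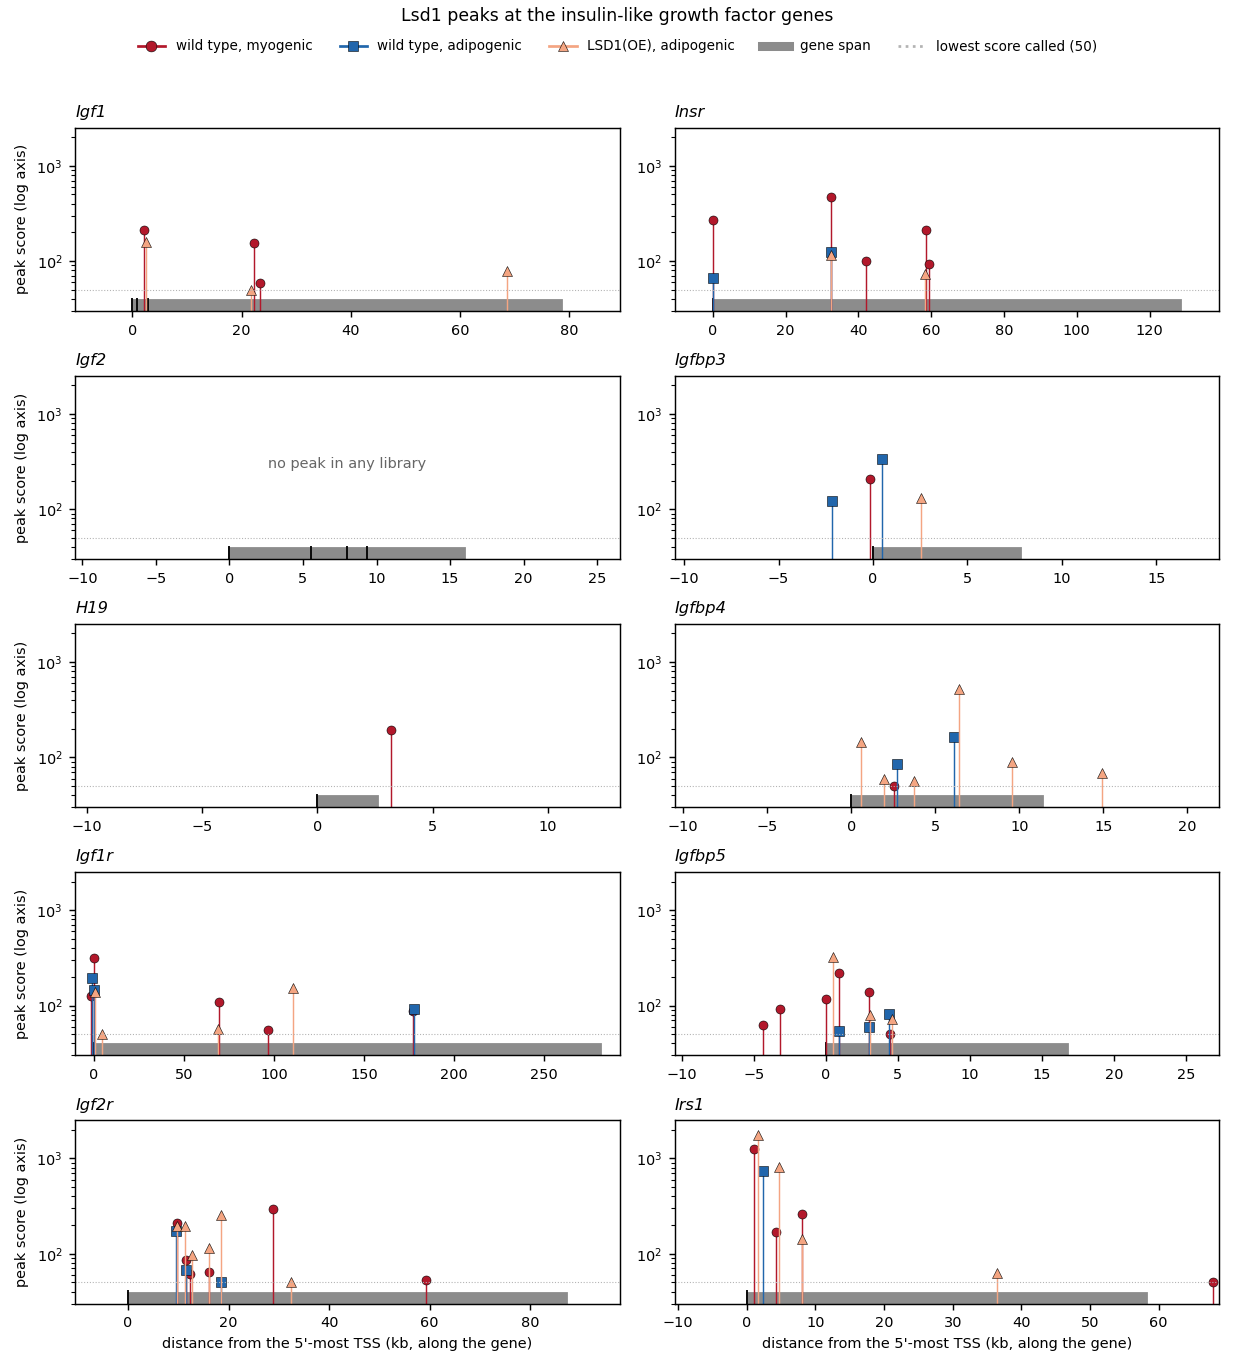
Peak score (logarithmic axis) against the distance of the peak centre from the 5′-most TSS (kb, along the gene) for each of the 10 genes; circles, squares and triangles are the myogenic, adipogenic and LSD1(OE) libraries, the grey bar is the gene and black ticks are its TSSs. Irs1 holds the highest scores in each library, up to 1753.86, and Igf2 has no peak.

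Igf1, the growth factor through which muscle fibres gain mass, lies at chr10:87858265-87937047 on the plus strand. In myogenic medium a peak at chr10:87859771-87861135 held 81 tags (score 209.79) and in LSD1(OE) cells a peak at chr10:87860120-87861339 held 85 tags (score 159.33). Both covered a TSS of Igf1 and lay in intron 1 of the transcripts that start further upstream. Their tag densities were 1.29 (95% exact Poisson interval 1.02 to 1.60) and 1.26 (1.01 to 1.56) tags per kb of called peak per 1000000 filtered ChIP tags, and the log2 ratio of LSD1(OE) to myogenic was -0.03 (-0.48 to 0.43). In wild-type cells in adipogenic medium no peak was called in the window, and the nearest one was centred 217526 bp downstream of an Igf1 TSS. A second pair of overlapping peaks lay in intron 2, where the myogenic peak (57 tags, score 153.53) was centred 19427 bp and the LSD1(OE) peak (31 tags, score 50.25) 18835 bp downstream of the TSS. That LSD1(OE) peak was barely above the lowest score called, 50. The remaining peaks were a myogenic one in intron 2 (score 58.95) and an LSD1(OE) one in intron 3 (score 78.37), centred at -39821 bp from the nearest TSS, that of Tyms-ps.

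Igf2 and H19 are neighbours in an imprinted cluster, in which Igf2 is expressed from the paternal and H19 from the maternal allele. Igf2 (chr7:142650768-142666816, minus strand) had no peak at any of its 4 TSSs or within 10 kb of the gene. The peak centres nearest to an Igf2 TSS were 19577 bp from it in myogenic medium (28 tags, score 51.81), 106294 bp in adipogenic medium and 107490 bp in LSD1(OE) cells, all downstream. Its antisense transcript Igf2os and the microRNA gene Mir483 in its intron likewise had no promoter peak. H19 (chr7:142575530-142578146, minus strand) had a single peak, in myogenic medium, at chr7:142574460-142575464, just beyond its 3′ end and 3184 bp from its TSS. It held 64 tags (score 191.82, percentile 64.9) at a density of 1.38 (1.06 to 1.76). The nearest TSS was that of Mir675, the microRNA made from the H19 transcript, 2185 bp away. The peaks nearest to H19 in the adipogenic and LSD1(OE) lists were 26944 and 28140 bp from its TSS, so neither had a peak at this pair of genes.

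Among the receptors, Igf1r and Insr had peaks at their promoters, while at Igf2r the peaks lay inside the gene. Igf1r (chr7:67952257-68233667, plus strand) had 2 promoter peaks in myogenic medium, with scores of 318.02 and 125.16, and 2 in adipogenic medium, with scores of 145.21 and 192.73. In LSD1(OE) cells it had 1, with a score of 139.73. The stronger myogenic peak, chr7:67951491-67952821, had its summit 382 bp upstream of the TSS, whereas the adipogenic and LSD1(OE) peaks that covered the TSS had theirs 163 and 431 bp downstream. Over the called lengths of these promoter peaks, density was 1.41 in the myogenic, 1.28 in the adipogenic and 1.16 in the LSD1(OE) library, and the 3 pairwise log2 ratios, from -0.28 to -0.14, all had intervals that included 0. The LSD1(OE) peak was the shortest, 1045 bp of the merged region of 2934 bp. With tags divided by the merged length, in which stretches outside a library's called peaks count as empty, the log2 ratio of LSD1(OE) to adipogenic was -1.31 (-1.73 to -0.90) and to myogenic -1.33 (-1.77 to -0.90). Inside the long introns the myogenic and adipogenic lists shared 1 region, centred 177094 and 177504 bp from the TSS, with scores of 86.87 and 92.03. The LSD1(OE) list had an intron 2 peak of its own, 110602 bp from the TSS with 64 tags (score 153.09), its highest score at Igf1r. Pgpep1l, the gene downstream of Igf1r and the one with the TSS nearest to that shared region, had a promoter peak in the myogenic and LSD1(OE) lists.

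Insr (chr8:3150922-3279617, minus strand) had its strongest peak in intron 2 and not at the promoter. There the myogenic peak chr8:3246520-3247895 held 111 tags (score 464.95, percentile 86.7), the adipogenic one 97 tags (score 125.98, percentile 56.2) and the LSD1(OE) one 51 tags (score 115.54, percentile 49.8). Density was 1.75 (1.44 to 2.10), 1.11 (0.90 to 1.35) and 1.19 (0.89 to 1.57). Both libraries from adipogenic medium were thus lower than the myogenic one, by more than the counting error: the log2 ratio was -0.66 (-1.06 to -0.25) for adipogenic and -0.55 (-1.06 to -0.06) for LSD1(OE). Both intervals also included the median ratios over regions shared at all genes, -0.34 and -0.21. Between LSD1(OE) and adipogenic the log2 ratio was 0.10 (-0.42 to 0.61), and -0.72 (-1.23 to -0.21) by the merged length. At the promoter, myogenic cells had a peak of 78 tags (score 266.94) and adipogenic cells one of 51 tags (score 65.87), both covering the TSS, with a log2 density ratio of -0.52 (-1.06 to 0.01), or -1.08 (-1.62 to -0.56) by the merged length. No peak was called there in LSD1(OE) cells, and their nearest was the one in intron 2. A further region in intron 2, centred 58446 bp from the TSS, was called in the myogenic (score 213.02) and LSD1(OE) (score 73.99) lists.

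Igf2r (chr17:12682406-12769706, minus strand) had 6 myogenic, 3 adipogenic and 6 LSD1(OE) peaks. Of genes with windows of like length (60 to 120 kb), 12.2, 13.5 and 8.65% had as many. Most lay in intron 1, between 9465 and 18473 bp downstream of the TSS. The strongest region common to the 3 lists, centred 9763, 9465 and 9802 bp downstream, had 74, 109 and 70 tags and scores of 210.03, 172.2 and 193.43, and its density was 1.34, 1.21 and 1.35, with intervals that overlapped widely. The next region, centred 11494, 11552 and 11430 bp downstream, had scores of 85.31, 67.4 and 196.52 and densities of 1.09, 1.06 and 1.35. The log2 ratio of LSD1(OE) was 0.35 (-0.19 to 0.89) to adipogenic and 0.32 (-0.24 to 0.90) to myogenic. By the merged length these were 0.63 (0.10 to 1.17) and 0.43 (-0.13 to 1.01). At chr17:12750408-12752058 the LSD1(OE) peak was the strongest at Igf2r in that list (111 tags, score 252.65), while the adipogenic peak at the same place had the lowest score of any kind, 50, and no myogenic peak was called. Their densities were nonetheless close, 1.22 and 1.07, with a log2 ratio of 0.18 (-0.26 to 0.63), or 0.86 (0.41 to 1.31) by the merged length. In myogenic medium the highest score at Igf2r, 292.29 (108 tags), belonged to another element. The peak chr17:12740056-12741816 lay in intron 2 and covered the start of Airn, the antisense RNA that is transcribed from the paternal allele and silences Igf2r in cis. It was called in the myogenic list alone. In LSD1(OE) cells the nearest peak to the Airn start was centred at -4014 bp from it, with the near-minimal score of 50.33.

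The binding protein genes differed most in which library held their strongest peak. Igfbp3 encodes the main carrier of Igfs in serum and lies at chr11:7206086-7213923 on the minus strand. It was the 1 gene whose highest score was in wild-type adipogenic cells. The adipogenic peak, chr11:7212163-7214703, held 193 tags over 2541 bp (score 339.87, percentile 89.7), and a second adipogenic peak of 99 tags (score 120.77) lay 2189 bp upstream of the TSS, where neither of the other lists had one. The myogenic peak at the promoter held 66 tags (score 208.47). It was shorter and denser, 1.42 (1.10 to 1.81) against 1.19 (1.03 to 1.37), and the log2 ratio of -0.26 (-0.67 to 0.17) for adipogenic to myogenic did not exceed the counting error over the called lengths. By the merged length, in which the shorter myogenic peak counts for less, it was 1.08 (0.668 to 1.504). In LSD1(OE) cells the promoter had no peak, and the only one at the gene was in intron 1, 2524 bp downstream of the TSS (54 tags, score 132.06). Igfbp1, the liver-expressed neighbour of Igfbp3, had no promoter peak in any list.

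Igfbp4, which mainly restrains Igf action, lies at chr11:99041244-99052655 on the plus strand. It had its highest score in LSD1(OE) cells, with 1 weak myogenic peak (28 tags, score 50.63), 2 adipogenic peaks and 6 LSD1(OE) peaks. As many as 6 peaks were found in 2.73% of genes with windows of 30 to 60 kb in the LSD1(OE) list. The strongest lay in intron 1, where the adipogenic peak held 85 tags (score 165.37) and the LSD1(OE) peak 176 tags over 2207 bp (score 525.99, percentile 90.9). Their summits were 6013 and 6023 bp downstream of the TSS, 10 bp apart, and no myogenic peak was called there. The densities were 1.38 (1.11 to 1.71) and 1.44 (1.24 to 1.67), so that the 2 libraries differed in the length called and in score more than in density (log2 ratio 0.06, -0.32 to 0.45; by the merged length 1.26, 0.88 to 1.65). A promoter peak of 66 tags (score 144.2) at chr11:99041305-99042309 was found in LSD1(OE) cells alone. A second LSD1(OE) peak (35 tags, score 58.75), centred 1947 bp from the TSS, also counted as a promoter peak. Its edge overlapped the weak myogenic peak and an adipogenic peak, which were centred 2534 and 2748 bp from the TSS and did not count.

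Igfbp5, the binding protein induced early in myoblast differentiation, lies at chr1:72858065-72874865 on the minus strand and had 6 myogenic, 3 adipogenic and 3 LSD1(OE) peaks. Of genes with windows of 30 to 60 kb, 4.78, 7.62 and 15.9% had as many. The region at its 5′ end was called in all 3 lists, with top scores of 220.78, 53.82 and 320.96. Density was 1.35 in the myogenic library, 0.95 in the adipogenic one and 1.45 in LSD1(OE) cells. The adipogenic value was lower than the myogenic one by a log2 ratio of -0.51 (-0.999 to -0.03), and the LSD1(OE) value was higher than the adipogenic one by 0.61 (0.15 to 1.09). Over regions shared at all genes the medians of these ratios were -0.34 and 0.13. Between LSD1(OE) and myogenic the ratio was 0.10 (-0.26 to 0.47). By the merged length the ratios were, in the same order, -1.55 (-2.04 to -1.07), 1.57 (1.11 to 2.05) and 0.02 (-0.34 to 0.39). The myogenic and LSD1(OE) lists each had a peak that covered the TSS, whereas the adipogenic peak was centred in coding exon 1 and did not reach the TSS. The 2 regions in intron 1, centred 2998 and 4466 bp downstream of the TSS, had densities of 1.01 to 1.23 and did not differ between libraries beyond their intervals, save by the merged length in 1 comparison, adipogenic over myogenic at the farther region (0.68, 0.01 to 1.38). Only myogenic cells had peaks upstream, 3210 and 4399 bp from the TSS, with scores of 93.04 and 62.66. Igfbp2, the next gene on the chromosome and another binding protein, had a promoter peak in all 3 lists, with scores of 501.07, 75.93 and 312.41.

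Irs1 (chr1:82233105-82291439, minus strand) had the highest peak score of the 10 genes in each list. Among the top-scoring peaks of the genes it was also the densest in the myogenic and LSD1(OE) lists, but in the adipogenic list its density (1.27) was below those of Igfbp4 (1.38) and Igf1r (1.33). In myogenic medium the peak chr1:82288602-82292053 held 290 tags (score 1255.59, percentile 98.2), and a second of 73 tags (score 170.81) followed over the end of exon 1, which holds the whole coding sequence. In adipogenic medium a single peak of 5475 bp, chr1:82286404-82291878, held 443 tags (score 734.44, percentile 98.1). In LSD1(OE) cells the peak chr1:82287775-82291893 held 418 tags (score 1753.86, percentile 99.2), and a second over the same end, chr1:82285983-82287654, held 178 tags (score 806.35, percentile 95.7). The summits were 310, 50 and 383 bp downstream of the TSS, in the 5′ untranslated region. The 250 bases upstream of the TSS printed above lay inside the called peak in each list. The centre of the adipogenic peak was 2298 bp from the TSS because of its length, so it did not count as a promoter peak by its centre but did by its summit.

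Over the called lengths in the merged region of 6071 bp at Irs1, namely 4755, 5475 and 5791 bp, density was 1.65 in the myogenic, 1.27 in the adipogenic and 1.86 in the LSD1(OE) library. The adipogenic value was lower than the myogenic one (log2 ratio -0.39, -0.59 to -0.18) and the LSD1(OE) value was higher than the adipogenic one (0.56, 0.38 to 0.74). The first interval included the median ratio over regions shared at all genes, -0.34, and the second lay above its median, 0.13. Between LSD1(OE) and myogenic the ratio was 0.17 (-0.02 to 0.37), which included 0. By the merged length the ratios were -0.18 (-0.39 to 0.02), 0.64 (0.46 to 0.82) and 0.46 (0.27 to 0.65). Of the 3 comparisons, only LSD1(OE) over adipogenic had an interval that excluded 0 by both measures. The 2 measures use the same tags, and the merged one also follows the called lengths, so they are not independent. In intron 1, 8044 bp from the TSS, a weaker region was called in the myogenic (79 tags, score 262.66) and LSD1(OE) (67 tags, score 141.14) lists and not in the adipogenic one.

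**Figure D3:**
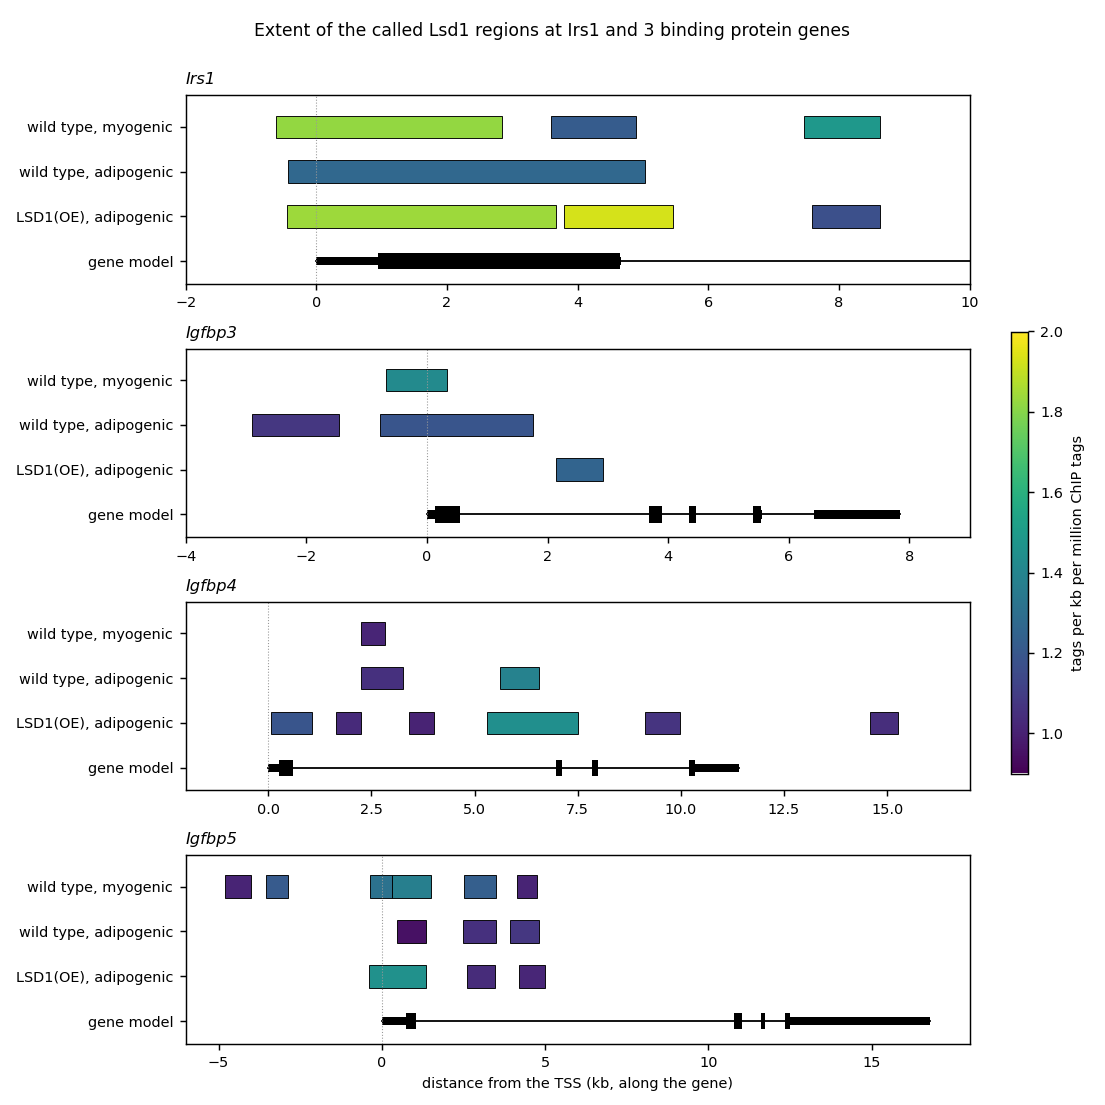
Called Lsd1 regions at Irs1, Igfbp3, Igfbp4 and Igfbp5, drawn to scale against the distance from the TSS (kb, along the gene); each row is 1 library, the colour is the tag density of the peak and the lowest row is the gene model, with coding exons as thick boxes and other exons as thin ones. At Irs1 the adipogenic list marks the promoter through coding exon 1 as 1 peak, and each other list marks it as 2 peaks with a gap. The adipogenic density (1.27) is below that of the longer peak of each other list. It is above that of the shorter myogenic peak (1.21). At Igfbp3 the promoter is marked in both wild-type libraries. At Igfbp4 1 region of intron 1 is marked in all 3, where the LSD1(OE) peak meets the others only at its edge.

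Of the 43 merged regions, 9 had a peak in all 3 lists, 3 in the myogenic and adipogenic lists, 6 in the myogenic and LSD1(OE) lists and 2 in the adipogenic and LSD1(OE) lists. A further 11 were myogenic only, 11 LSD1(OE) only and 1, upstream of Igfbp3, adipogenic only. Over the regions in the windows of all genes, 22.9% were common to the 3 lists, 35.1% were myogenic only, 18.9% LSD1(OE) only and 3.36% adipogenic only, against 20.9, 25.6, 25.6 and 2.33% at the insulin-like growth factor genes. Of the 15 member regions in the adipogenic list, 80% overlapped a myogenic peak (all gene windows, 83.0%), and of the 28 in the LSD1(OE) list 53.6% did (62.8%).

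At the 12 regions called in both wild-type libraries, the median log2 density ratio of adipogenic to myogenic was -0.19, with 10 of 12 lower in adipogenic medium. Over 11570 such regions at all genes the median was -0.34, so a lower adipogenic density was the general state of these libraries. The 12 member ratios, from -0.66 to 0.09, lay between the 5th and 95th percentiles of those regions, -0.79 and 0.10. The intervals lay below 0 at 3 of the 12, in Insr intron 2, at the 5′ end of Igfbp5 and at Irs1. These 3 intervals all included the all-gene median of -0.34. For LSD1(OE) over adipogenic the median was 0.10 over 11 regions (all genes, 0.13), with intervals above 0 at the 5′ end of Igfbp5 and at Irs1. For LSD1(OE) over myogenic it was 0.01 over 15 regions (all genes, -0.21), with 1 interval below 0, in Insr intron 2, which also included -0.21. The 3 comparisons share libraries and are not independent. By the merged length, 17 of the 38 ratios at single regions had an interval that newly excluded or newly included 0, and 21 did not. None moved from above 0 to below it or the reverse. Density was taken over each peak's own called length, and since only called peaks enter, it could not fall below 0.93, 0.86 or 0.89, the lowest of any peak in the 3 lists.

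**Figure D4:**
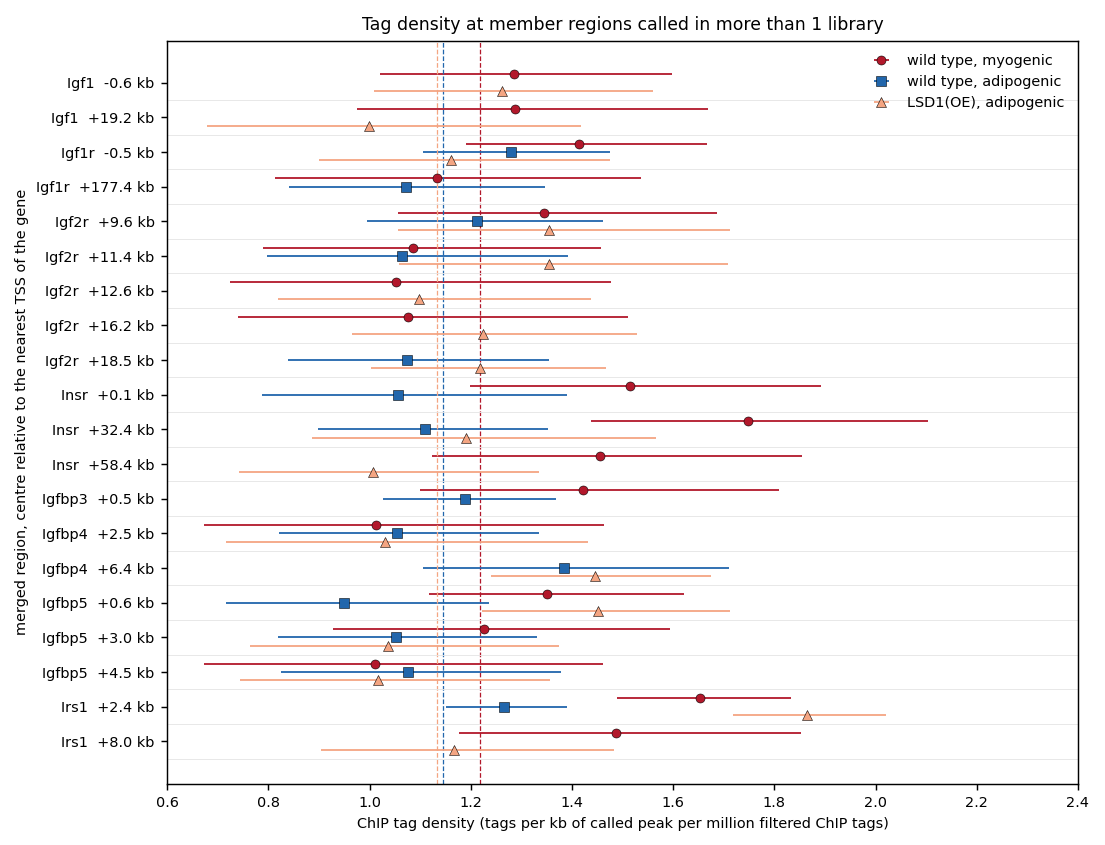
ChIP tag density (tags per kb of called peak per 1000000 filtered ChIP tags) at the 20 regions called in more than 1 library, by gene and by distance of the region's centre from the nearest TSS; points are single libraries, bars are 95% exact Poisson intervals and dashed lines are the medians of all peaks of each library (1.22, 1.14 and 1.13). The intervals of the adipogenic library lie apart from those of another library at Irs1 and in Insr intron 2, and overlap elsewhere.

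In the windows of 201 bases around the summits, 8 of 32 myogenic windows held an E-box (25%), against 19.3% of all myogenic windows, and 2 of 16 adipogenic (12.5%, all 22.0%) and 5 of 29 LSD1(OE) windows (17.2%, all 19.2%) did. The CTCF core was found in 6, 3 and 5 windows (18.8, 18.8 and 17.2%), against 10.2, 10.4 and 10.2% of all windows. AP-1 was found in 3, 0 and 3 (all 11.0, 12.03 and 10.4%), TEAD in 4, 3 and 5 (all 12.3, 11.6 and 11.5%) and C/EBP in none, as in over 99% of all windows. The Igf2r intron 1 window printed above held 2 E-boxes, 1 of which overlapped a CTCF core, and the Igfbp4 intron 1 window held a TEAD match. In the Irs1 coding exon window 2 CTCF core matches were found, and the Insr intron 2 and Airn windows each held 1 on the opposite strand. The Irs1 promoter held 1 TEAD match, as 12.6% of all RefSeq promoters did over the same 250 bases. Windows of the 3 lists overlap at shared regions, so the shares are not independent. The CTCF core of the printed Igf2r intron 1 region counted in all 3 lists. That of the Insr intron 2 region counted in both wild-type lists. The matches describe the letters and are no evidence of binding.

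The windows also differed in CpG content, given as the ratio of observed to expected CpG. At Igf1r the printed window had a ratio of 1.17 and the Irs1 promoter one of 0.90, against a median of 0.37 over the upstream 250 bases of 32851 promoters and of 0.73 over myogenic peaks within 2000 bp of any TSS. The Igfbp3 window had a ratio of 0.77, near the corresponding adipogenic median of 0.73, and the Igf1 and Airn windows, also near a TSS, had lower ratios of 0.34 and 0.18. Away from any TSS, the windows in Insr intron 2 and Igf2r intron 1 had ratios of 0.08 and 0.26 (median of such myogenic peaks, 0.19), and the Igfbp4 intron 1 window had one of 0.22 (median of such LSD1(OE) peaks, 0.19).

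Beyond the 10 genes, a list of 50 further genes of the pathway was counted in full. Promoter peaks were found at 35 of them in the myogenic (70%), 29 in the adipogenic (58%) and 31 in the LSD1(OE) list (62%), against 46.8, 27 and 37.3% of all genes. In all, 28 had one in all 3 lists (56%, all genes 23.5%) and 15 in none (30%, all genes 49.7%). By role, all 7 genes of PI3-kinase and the lipid phosphatases, among them Pik3ca and Pik3r1, had a promoter peak in all 3 lists. Of 11 adaptors 8, 6 and 8 had one, of 17 kinases and targets 14, 11 and 11, of 7 ligands and other binding proteins 3 in each, of 4 proteases and inhibitors of the binding proteins 2 in each, and of the 3 Igf2 mRNA-binding proteins 1, 0 and 0. Insrr, the insulin receptor-related receptor, had none. Ins1 and Ins2, the insulin genes, had no peak in their windows in any list.

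The highest myogenic promoter scores in this list were those of the adaptor Gab1 (2947.22), the glycogen synthase kinase gene Gsk3a (1915.24), Irs2 (1503.77), the transcription factor gene Foxo3 (1255.81) and Igfbp6 (1086.57). In adipogenic medium the same promoters had scores of 669.55, 695.16, 980.97, 526.76 and 720.37, and in LSD1(OE) cells of 885.54, 930.23, 1495.13, 472.1 and 1210.04. Irs2, the sister adaptor of Irs1, thus had scores above percentile 98 in each list, as Irs1 had. No pathway gene had a promoter peak in adipogenic medium without one in myogenic medium, a pattern found in 0.477% (adipogenic alone) and 0.455% (adipogenic and LSD1(OE)) of all genes. Promoter peaks in the myogenic and LSD1(OE) lists alone, the pattern of Igf1, were found at 3 of the 50 genes, against 10.8% of all genes. These were Sos1 (212.17 and 106.31), Ptpn11 (263.08 and 56.05) and Rps6kb1 (144.95 and 80.98), which act downstream of the receptors. Akt2, 1 of the 50, shared the pattern of Insr and Igfbp3, with promoter peaks in both wild-type lists and none in LSD1(OE) cells (all genes, 2.53%). In the wider windows, Igfals, Tsc1 and Foxo4, 3 of the 50, had peaks in the myogenic list alone, as H19 had (all genes, 9.66%).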

How the data were processed

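Lsd1 ChIP and input libraries (1 each per condition, 3 conditions) were sequenced as 50 bp single reads and mapped to mm10. The mapper is Bowtie in the paper and Bowtie2 in the submitters' processing notes. The authors called peaks of each ChIP library against its own input with MACS, version 1.4.2 per the file headers and 1.41 per the submitters' processing notes, at a p cut-off of 1e-05. The deposited tag count of a peak is the number of ChIP tags after duplicates were limited, without normalization. The deposited score is 10 times the negative log10 of the p-value, computed by the authors' run after the smaller library was scaled up. The deposited fold ratio is not comparable between the libraries and was not used, and the deposited FDR, in percent, is under 1% for each peak. MACS multiplied ChIP tags by up to 1.90 in scaling, which differs between libraries (1.28 for the adipogenic one) and moves scores.

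Spans and 31647 TSSs of 26180 genes came from curated RefSeq on GRCm38.p6. Promoters were 2000 bp either side of a TSS. Peaks overlapping by at least 1 bp were merged into regions. Density was tags per kb per 1000000 filtered ChIP tags, with exact Poisson intervals for densities and exact binomial ones for ratios. Genes were named by a rule: the 10 members, their regions called in 2 or more lists, the strongest peak per list, genes whose TSS was nearest to a member peak, the 5 highest myogenic promoter scores of the pathway list and genes that shared a member's pattern. Members and lists were chosen with earlier results of these data known. No tests were run. Alternatives were other windows, positions, thresholds, equal list lengths, unscaled scores, merged-region length and another annotation. The counting steps were tested on simulated data. Python 3.11.15, NumPy 2.4.6, pandas 2.3.3, SciPy 1.17.1 and matplotlib 3.10.9 were used. Reads and expression were not analysed here.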

Additional observations from a re-analysis of the deposited data

How the results depend on the processing

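Of 95 alternative values of 16 results, 76 stayed within 1.5 times of the reported count, or within the interval of the reported value, and 19 did not. Peaks at the members numbered 59, 29 and 53 (myogenic, adipogenic, LSD1(OE)) with 50 kb either side, 18, 8 and 13 at an FDR of at most 0.1%, and 19, 8 and 15 at a score of at least 100. With the 18893 strongest peaks of each list they numbered 14 (myogenic) and 15 (LSD1(OE)), beside 16 adipogenic ones, so the larger myogenic and LSD1(OE) counts went with the length of those lists. With scores not scaled up and kept at 50 or more they numbered 19 and 16. Promoter peaks in adipogenic medium were found at 2 members, Igf1r and Igfbp3, at an FDR of at most 0.1% and at a score of at least 100, while with equal list lengths the 6, 4 and 5 genes of the 3 lists were the same genes. Regions common to the 3 lists numbered 4 at a score of at least 100, 5 with equal list lengths and 4 with unscaled scores. The median log2 density ratio of LSD1(OE) to adipogenic turned to -0.22 when tags were divided by the length of the merged region. In that measure a library called shorter at a region has fewer tags per kb there. Single ratios moved both ways, to 1.57 at the 5′ end of Igfbp5 and to -1.31 at the Igf1r promoter. By summit, Irs1 joined the adipogenic promoter genes, and with GENCODE TSSs, chosen after seeing the data, Igfbp4 did. No paired analysis was possible because each condition had 1 library. The smallest tag counts of a called peak were 27, 35 and 30 in the 3 lists. A region without a peak is thus one not called, and its tags were not analysed here.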
